A study of Rattus norvegicus with 6 samples.

Results

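The genes described are the G1 cyclins and the inhibitors of cyclin-dependent kinases (CDK), taken by symbol as Ccnd1, Ccnd2, Ccnd3, Ccne1, Ccne2, Cdkn1a, Cdkn1b, Cdkn1c, Cdkn2b and Cdkn2c. Of these 10 genes, 9 had a transcript row among the 17221 rows of the table, and Ccnd3 was not analysed here. Where a symbol had several rows, the most abundant was used. In all, 8 genes had reads and entered the tests among 9820 rows, and Cdkn1c was listed at 0 in every library. The RNA came from RA synovial fibroblast-like cells, which are the lining cells of the joint, grown from the synovium of 2 female Wistar rats with collagen-induced arthritis (CIA). The cells of each rat were divided over 3 settings, which gave 6 libraries. The medium held one of 3 sera: that of fetal calves (FBS), that of untreated rats (MS−), or that drawn from rats after 18 days of mechanical stimulation with a needle (MS+), which the labels call acupuncture. All 3 settings thus share the arthritic cells. FBS differs from both rat sera in species and in being fetal, and from MS+ in stimulation as well. These differences cannot be told apart. The paper's methods place the MS− draw before any therapy and the MS+ draw at day 18. Stimulation and the time of the draw therefore cannot be told apart in MS+ against MS−. One label field calls the MS− rats healthy while the others give rheumatoid arthritis. The paper's results describe the MS− blood as that of untreated animals with induced CIA, and its MS group as CIA animals. Its supplementary sampling summary lists healthy animals beside the stimulated ones for blood serum. Neither the age of the rats nor the number of serum donors is stated in the labels.

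Cells decide in G1 whether to copy their genome. D cyclins bind CDK4 and CDK6, E cyclins bind CDK2, and these kinases phosphorylate the retinoblastoma protein, which then releases E2F factors that transcribe S phase genes. The inhibitors fall into the CIP/KIP family (Cdkn1a, Cdkn1b and Cdkn1c, encoding p21, p27 and p57), which acts on cyclin and CDK complexes, and the INK4 family (Cdkn2b and Cdkn2c, encoding p15 and p18), which binds CDK4 and CDK6. Synovial fibroblasts multiply in the arthritic joint, and serum growth factors are the usual inducers of D cyclins in cultured fibroblasts.

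The libraries held 5463316 to 5991889 reads, and expression is given in counts per 1000000 reads (CPM) on the scale deposited by the authors. A count of 3 reads corresponded to 0.491 to 0.551 CPM. The cell type was checked against markers. All 10 fibroblast markers had reads, with a summed level of 80454 to 87674 CPM in FBS, 62483 to 64796 CPM in MS− and 70482 to 73467 CPM in MS+. Of 8 macrophage and leukocyte markers, 5 were at 0 in every library (Ptprc, Cd163, Itgam, Lyz2 and Cd3e), and the list summed to 13.8 to 14.6 CPM in FBS, 17.2 to 20.5 CPM in MS− and 16.3 to 17.7 CPM in MS+, mostly from Cd14. Of 5 endothelial markers, 3 had a row and Cdh5 was at 0, with sums of 1.33 to 1.47 CPM in FBS, 0.181 to 1.46 CPM in MS− and 0.551 to 1.08 CPM in MS+. All 6 skeletal muscle markers had reads, summing to 935 to 1122 CPM in FBS, 772 to 914 CPM in MS− and 1029 to 1203 CPM in MS+, almost wholly from Acta1. The fibroblast sum moved with the serum, but its markers did not all move alike. Col1a1 fell from 40458.2 and 34296.5 CPM in FBS to 23563.3 and 23624 CPM in MS− and 28735.7 and 25507.1 CPM in MS+. Vim rose from 11485.5 and 11980.7 CPM in FBS to 12544.4 and 14339.9 CPM in MS− and 13971.8 and 16559.2 CPM in MS+. The part of the sum in the results below was not tested. In bulk RNA, fewer cells of a type and less RNA per cell cannot be told apart.

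Both rat sera gave more Cdkn1a, the p21 inhibitor, than FBS, and less of the E cyclin Ccne1 and of the INK4 inhibitors Cdkn2b and Cdkn2c. In limma on log2(CPM + 1), at a Benjamini-Hochberg adjusted p under 0.05 over all rows, 4 of the 8 tested genes passed for MS+ against FBS, where 9.61% of all rows passed. Of these 1 was higher and 3 lower, against 4.95% of all rows higher and 4.66% lower. For MS− against FBS the count was also 4, against 4.81% of all rows, with 1 higher (2.09% of all rows) and 3 lower (2.72%). None of the 8 passed for MS+ against MS− (0.0204% of all rows passed, 0.0102% in each direction), while 2 had an unadjusted p under 0.05. There edgeR, limma-voom and DESeq2 also called none of the 8. Over all rows edgeR called 0.0305% and limma-voom 0.0407%, and DESeq2 called 1.42% of the 8677 rows to which it gave an adjusted p. Replicates of the same number were taken as cells of the same rat, so a second fit took the rat as a block. With the block, 7 genes passed for MS+ against FBS (28.2% of all rows), 1 higher (14.4%) and 6 lower (13.9%). For MS− against FBS 6 passed (20.5%), 1 higher (10.8%) and 5 lower (9.63%). For MS+ against MS− 3 passed (10.1%), all 3 lower (4.78%) and none higher (5.27%). The libraries did not overlap for 8 of the 8 genes in MS+ against FBS, 7 in MS− against FBS and 5 in MS+ against MS−, where 56.7%, 51.6% and 45.8% of all rows did not overlap. Both contrasts against FBS use the same FBS libraries. Without the block the p-values rest on the spread between the 2 libraries of a setting. With it they rest on how far the differences between sera vary between rat 1 and rat 2. In both fits limma draws the spread of a gene toward that of rows at a like level. With the block most of that spread comes from the other rows. Neither fit measures the spread between serum donors.

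**Figure D1:**
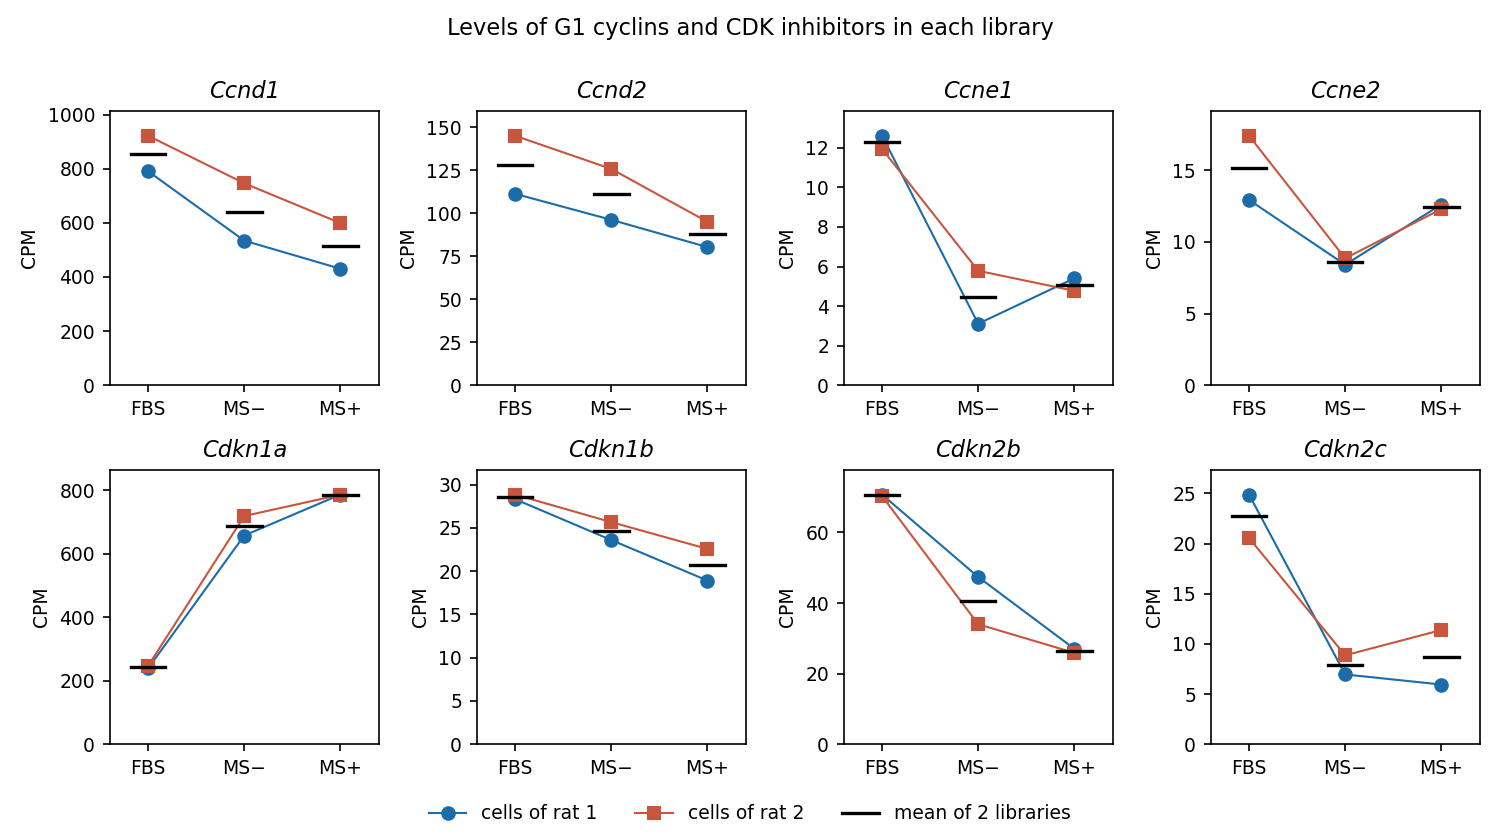
Level in CPM (vertical axes, linear, from 0) of the 8 genes with reads in each library, by serum setting; circles are cells of rat 1, squares cells of rat 2, lines join the libraries of a rat, and bars are means of 2 libraries. Cdkn1a lies at 239 and 247 CPM in FBS and at 657 CPM or more in all 4 rat serum libraries, while the lines of Ccnd1, Ccnd2, Cdkn1b and Cdkn2b fall from FBS through MS− to MS+ in both rats.

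Ccnd1 encodes cyclin D1, the main growth factor sensor among the cyclins (NM_171992; rn4 chromosome 1, 205357235 to 205366757, minus strand). Its level was 790 CPM in the cells of rat 1 and 922 CPM in those of rat 2 with FBS, 534 and 746 CPM with MS−, and 430 and 599 CPM with MS+. FBS was thus highest and MS+ lowest in each rat, and the MS− and MS+ libraries overlapped because rat 2 was the higher of the pair in every setting. For MS+ against FBS the difference was -0.75 (SE 0.21) on the log2(CPM + 1) scale, with adjusted p = 0.0740 in the unblocked fit and 1.22e-05 in the blocked one. For MS− against FBS it was -0.43 (SE 0.21), with 0.297 and 0.00206 in the same order. That blocked call was lost without the MS− library of rat 1 (adjusted p = 0.165) or of rat 2 (0.0521). Between MS+ and MS− the difference was -0.31, nearly equal in both rats (-0.31 and -0.32), with adjusted p = 0.554 unblocked and 0.0313 blocked. The last call was lost when the MS− library of rat 1 (adjusted p = 0.260), the MS− library of rat 2 (0.485) or the MS+ library of rat 1 (0.130) was left out.

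Ccnd2, cyclin D2, has the same kinase partners (NM_022267; rn4 chromosome 4, 163523817 to 163546501, minus strand). It stood at 111 and 145 CPM with FBS, 96.2 and 126 CPM with MS−, and 80.4 and 95.1 CPM with MS+, in the order of rat 1 and rat 2. MS+ was the lowest setting in both rats and did not overlap the others, whereas FBS and MS− overlapped. The MS+ against FBS difference was -0.53 (SE 0.18; adjusted p = 0.113 without the block, 0.000426 with it). With the block it ranged from -0.61 to -0.46 when 1 library was left out. The MS− against FBS difference of -0.21 passed in neither fit (adjusted p = 0.572 and 0.130), with a 95% interval from -0.63 to 0.22 without the block. MS+ lay below MS− by -0.33 (adjusted p = 0.471 without the block, 0.0323 with it). That blocked call was lost without the MS− library of rat 1 (adjusted p = 0.282), the MS− library of rat 2 (0.403) or the MS+ library of rat 2 (0.163).

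Ccne1 encodes cyclin E1, the CDK2 partner at the entry to S phase (NM_001100821; rn4 chromosome 1, 90568189 to 90577426, minus strand). It was read at 77 and 72 counts (12.6 and 11.9 CPM) with FBS, 17 and 32 counts (3.11 and 5.78 CPM) with MS−, and 30 and 26 counts (5.41 and 4.77 CPM) with MS+. All 4 rat serum libraries were below both FBS libraries, and the MS− and MS+ libraries overlapped. Ccne1 fell in MS+ against FBS by 1.13 on the log2 scale (SE 0.27; adjusted p = 0.0470, and 0.00253 with the block), and its mean CPM was 2.41-fold lower. The MS− against FBS difference was -1.33 (SE 0.27; adjusted p = 0.0431, and 0.00102 with the block), 2.76-fold lower in mean CPM. Without the block, leaving out any one of the FBS and MS+ libraries ended the first call (adjusted p = 0.139 to 0.183). The second was lost without either FBS library (0.214 and 0.121), the MS− library of rat 1 (0.164) or either MS+ library (0.0850 and 0.0836). With the block, the second call was lost without the MS− library of rat 1. Over all alternatives the MS+ difference ranged from -1.36 to -0.89 and the MS− difference from -1.75 to -0.91. The difference of 0.20 between MS+ and MS− was positive in rat 1 (0.64) and negative in rat 2 (-0.23), with a 95% interval from -0.43 to 0.84.

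Ccne2, cyclin E2, shares that role (NM_001108656; rn4 chromosome 5, 25032748 to 25044150, plus strand). Its levels were 12.9 and 17.4 CPM with FBS, 8.41 and 8.86 CPM with MS−, and 12.6 and 12.3 CPM with MS+. MS− was the lowest setting in both rats, and for rat 1 the MS+ library nearly equalled the FBS library. The MS− against FBS difference was -0.73 (SE 0.19), with adjusted p = 0.0835 unblocked and 0.0101 blocked. The blocked call was lost without the FBS library of rat 2 (adjusted p = 0.126) or the MS− library of rat 1 (0.102) or rat 2 (0.168). MS+ against FBS gave -0.25 (95% interval -0.70 to 0.19; adjusted p = 0.433, and 0.339 with the block). MS+ lay above MS− in both rats, by 0.53 and 0.43, and this difference of 0.48 did not pass (adjusted p = 0.307, and 0.115 with the block). Whether the E cyclins differ from each other in their response was not tested.

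Cdkn1a encodes p21, a target of the p53 factor and of other stress and differentiation signals (NM_080782; rn4 chromosome 20, 7376325 to 7386778, plus strand). It gave 239 and 247 CPM with FBS (1459 and 1487 counts), 657 and 718 CPM with MS−, and 786 CPM in each MS+ library (4362 and 4280 counts). Every rat serum library exceeded both FBS libraries by more than the spread within any setting. Cdkn1a rose by 1.69 in MS+ against FBS (SE 0.09; adjusted p = 0.000832, and 5.80e-10 with the block), a ratio of 3.24 in mean CPM, with 3.29 in rat 1 and 3.19 in rat 2. In MS− against FBS it rose 2.83-fold in mean CPM (log2 difference 1.28 to 1.72 as a 95% interval, SE 0.09; adjusted p = 0.00185, and 7.03e-09 with the block). Both differences kept their direction under every alternative that was run, from 1.64 to 1.73 in MS+ and from 1.43 to 1.56 in MS−. MS+ exceeded MS− in both rats (by 0.26 and 0.13), and this difference of 0.19 did not pass (adjusted p = 0.398, and 0.140 with the block).

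Cdkn1b encodes p27, which holds CDK2 inactive in resting cells and is set mostly by protein turnover (NM_031762; rn4 chromosome 4, 171841705 to 171846506, plus strand). It measured 28.3 and 28.8 CPM with FBS, 23.6 and 25.7 CPM with MS−, and 18.9 and 22.6 CPM with MS+. The 3 settings did not overlap, with MS+ lowest. Only MS+ against FBS passed, and only with the block (-0.45, SE 0.14; adjusted p = 0.0948 without the block, 0.0243 with it). Omission of the FBS library of rat 1 (adjusted p = 0.187), the MS− library of rat 1 (0.0582) or rat 2 (0.0593), or the MS+ library of rat 1 (0.140) ended that call. MS− against FBS gave -0.21 (95% interval -0.54 to 0.13) and MS+ against MS− gave -0.24 (-0.58 to 0.09). The third gene of the family, Cdkn1c (p57), is imprinted and had 3 overlapping rows on the same span (rn4 chromosome 1, 203835215 to 203837843, minus strand), all at 0. The counting method drops reads that several transcripts share, and 52.8% of the 906 rows that overlap a row of their own symbol were at 0, against 25.1% of the 16315 other rows. The 0 of Cdkn1c therefore does not show that it was not expressed.

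Cdkn2b encodes p15, an inhibitor known to be induced by TGF-beta (NM_130812; rn4 chromosome 5, 108939669 to 108945293, minus strand). Its levels were 70.7 and 70.3 CPM with FBS, 47.4 and 34.0 CPM with MS−, and 27.0 and 25.9 CPM with MS+. The settings did not overlap, and the FBS and MS+ libraries were each close to their pair. In MS+ against FBS it fell by 1.38 (SE 0.16; adjusted p = 0.00734, and 1.57e-06 with the block), 2.67-fold lower in mean CPM. Without the block this became 0.0571 without the MS+ library of rat 1 and 0.0509 without that of rat 2. In MS− against FBS it fell by 0.80 (SE 0.16; adjusted p = 0.0444, and 0.000387 with the block). Without the block the call was lost on omission of any library but the MS− library of rat 1. With the block it was lost without the MS− library of rat 2. MS+ lay below MS− by -0.58, with -0.79 in rat 1 and -0.38 in rat 2 (adjusted p = 0.200 without the block, 0.00947 with it), and the blocked call was lost without the MS− library of rat 1 (0.405).

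Cdkn2c encodes p18, another inhibitor of CDK4 and CDK6 (NM_131902; rn4 chromosome 5, 131012525 to 131017679, minus strand). Its counts were 152 and 124 with FBS (24.9 and 20.6 CPM), 38 and 49 with MS− (6.95 and 8.86 CPM), and 33 and 62 with MS+ (5.95 and 11.4 CPM). All rat serum libraries were below both FBS libraries, and MS+ was the more widely spread setting. Cdkn2c fell by 1.35 in MS+ against FBS (SE 0.29; adjusted p = 0.0369, and 0.000356 with the block) and by 1.42 in MS− against FBS (SE 0.29; adjusted p = 0.0455, and 0.000321 with the block). The MS+ change was -1.90 in rat 1 and -0.80 in rat 2. Without the block, the MS+ call was lost on omission of every library but the MS+ library of rat 2 (adjusted p = 0.0598 to 0.165) and the MS− call on omission of either FBS or either MS− library (0.109 to 0.239). With the block, both calls held under every omission (up to 0.0164). MS+ and MS− were not separated (0.07, 95% interval -0.63 to 0.76).

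**Figure D2:**
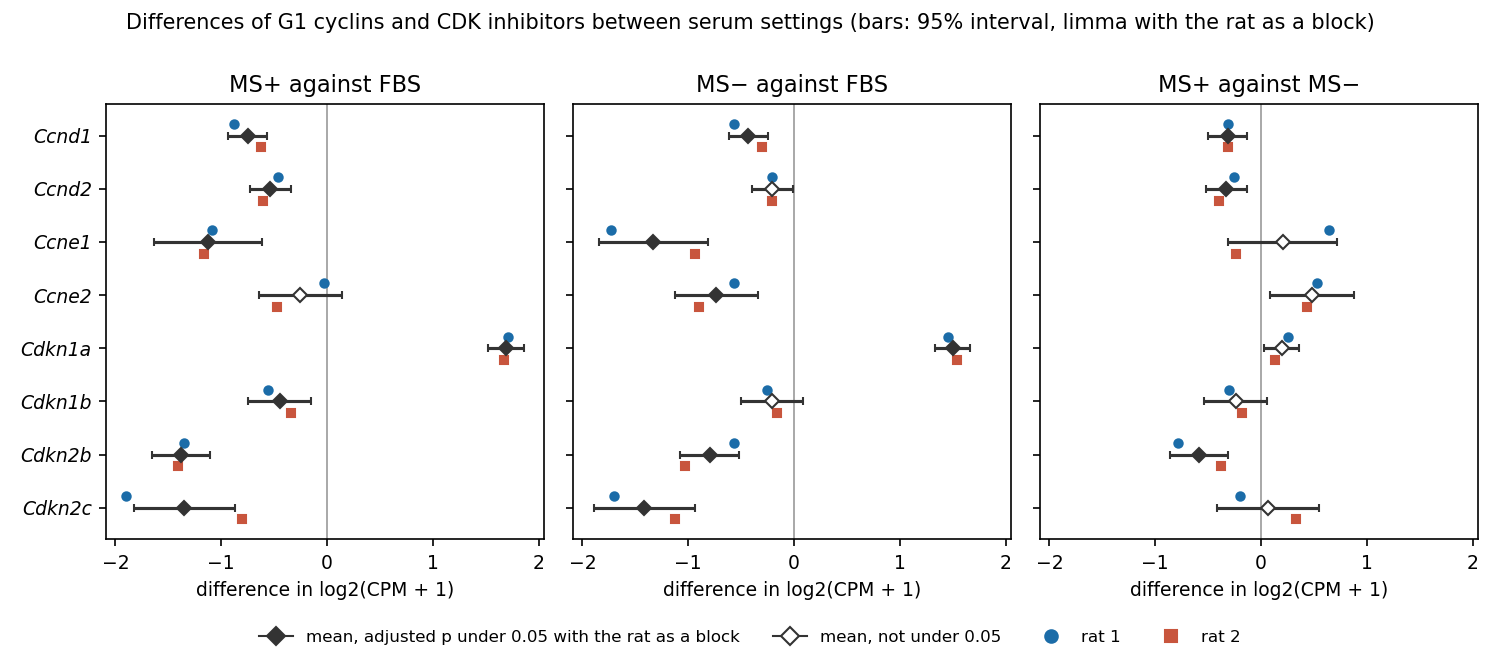
Difference in log2(CPM + 1) (horizontal axis) of each gene in the 3 comparisons; diamonds are means with 95% intervals from limma with the rat as a block, filled where the blocked p, adjusted over all rows, is under 0.05, circles are rat 1 and squares rat 2. Cdkn1a is the only gene right of 0 against FBS, and for MS+ against MS− the intervals of Ccnd1, Ccnd2 and Cdkn2b lie left of 0 and those of Ccne2 and Cdkn1a right of 0, the latter without a passing adjusted p.

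The promoters of 1 gene that rose and 3 that fell against FBS are shown to give the sequence in front of them. They are the 250 bases before the RefSeq transcript start, read 5′ to 3′ on the gene's strand in assembly GRCr8, whose coordinates are not those of rn4. RefSeq held such an entry for 6 of the 10 genes. Where a gene had several entries only the first was read, so sequence before another start was not searched. Capitals mark matches to the motifs searched, on either strand.
Cdkn1a (chr20:7150682-7150931, plus strand): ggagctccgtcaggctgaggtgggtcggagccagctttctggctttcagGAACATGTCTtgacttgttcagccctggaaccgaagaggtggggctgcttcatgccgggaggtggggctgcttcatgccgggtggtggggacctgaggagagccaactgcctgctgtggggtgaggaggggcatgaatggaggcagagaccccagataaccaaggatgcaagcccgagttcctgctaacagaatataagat
Ccne1 (chr1:99927910-99928159, minus strand): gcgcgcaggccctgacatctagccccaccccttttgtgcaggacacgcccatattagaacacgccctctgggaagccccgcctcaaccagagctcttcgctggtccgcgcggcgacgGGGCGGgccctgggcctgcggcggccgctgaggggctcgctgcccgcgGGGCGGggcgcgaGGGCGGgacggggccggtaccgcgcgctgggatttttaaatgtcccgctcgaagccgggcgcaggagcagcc
Cdkn2b (chr5:109134856-109135105, minus strand): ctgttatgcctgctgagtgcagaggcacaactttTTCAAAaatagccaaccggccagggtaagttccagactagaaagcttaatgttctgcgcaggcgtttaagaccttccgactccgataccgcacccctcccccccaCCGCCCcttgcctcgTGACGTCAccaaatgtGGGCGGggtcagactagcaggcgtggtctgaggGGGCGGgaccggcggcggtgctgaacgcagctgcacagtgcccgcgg
Cdkn2c (chr5:129644892-129645141, minus strand): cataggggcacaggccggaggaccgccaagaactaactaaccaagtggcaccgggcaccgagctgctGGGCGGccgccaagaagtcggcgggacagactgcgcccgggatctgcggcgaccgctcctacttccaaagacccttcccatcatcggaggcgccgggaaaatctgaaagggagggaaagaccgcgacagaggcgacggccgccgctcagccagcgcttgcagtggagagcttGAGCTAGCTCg

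The motifs were the E2F site (TTTGGCGC, TTTCCCGC, TTTCGCGC or TTTGCCGC), the GC box GGGCGG, the CRE TGACGTCA, the AP-1 site TGACTCA, the CHR TTTGAA, the TATA box TATAAA, the CCAAT box and the p53 half-site. The E2F and GC box letters can overlap each other. None of the 6 promoters held any E2F spelling, which 1.73% of 33469 promoters held, although E cyclin genes are textbook E2F targets. This says only that these letters are not in the window. The GC box was found in 5 of the 6, with 3 matches each in Ccne1 and Cdkn2b and 1 in Cdkn2c, against 30.5% of all promoters. The 6 windows were 58.8% to 72.8% G and C, against a median of 51.2% over all promoters. GC box letters are all G or C, so the 30.5% is not a share among promoters of like composition. The Cdkn1a window had no GC box and 1 p53 half-site, GAACATGTCT, at bases 201 to 192 before the start that was read. The Cdkn2c window had 1 half-site at bases 11 to 2. Whether Cdkn1a has other starts was not examined. Such half-sites were in 6.64% of all promoters. Cdkn2b also held a CRE at bases 96 to 89 (1.59% of all promoters) and a CHR at bases 216 to 211 (16.2%). AP-1, TATA and CCAAT letters, in 4.05%, 12.9% and 34.0% of all promoters, were in none of the 4 shown.

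The surroundings of the G1 genes were read from 8 lists with 68 tested genes. Against FBS, 6 of 7 late cyclins and proliferation markers fell in both rat sera, the exception being Pcna. In all, 18 list genes passed for MS+ against FBS, 17 for MS− against FBS and none for MS+ against MS−, where 9.61%, 4.81% and 0.0204% of all rows passed. With the block 31, 31 and 15 passed, where 28.2%, 20.5% and 10.1% of all rows did. In the last comparison 20 had an unadjusted p under 0.05, edgeR and limma-voom called none and DESeq2 called 6. Without the block, leaving out 1 library took the first count to 3 without FBS of rat 1, 6 without FBS of rat 2, 1 without MS+ of rat 1 and 7 without MS+ of rat 2, and the second to 11 without either MS− library. The median difference over all rows was 0.00078, 0.01 and -0.0058 in the 3 comparisons.

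**Figure D3:**
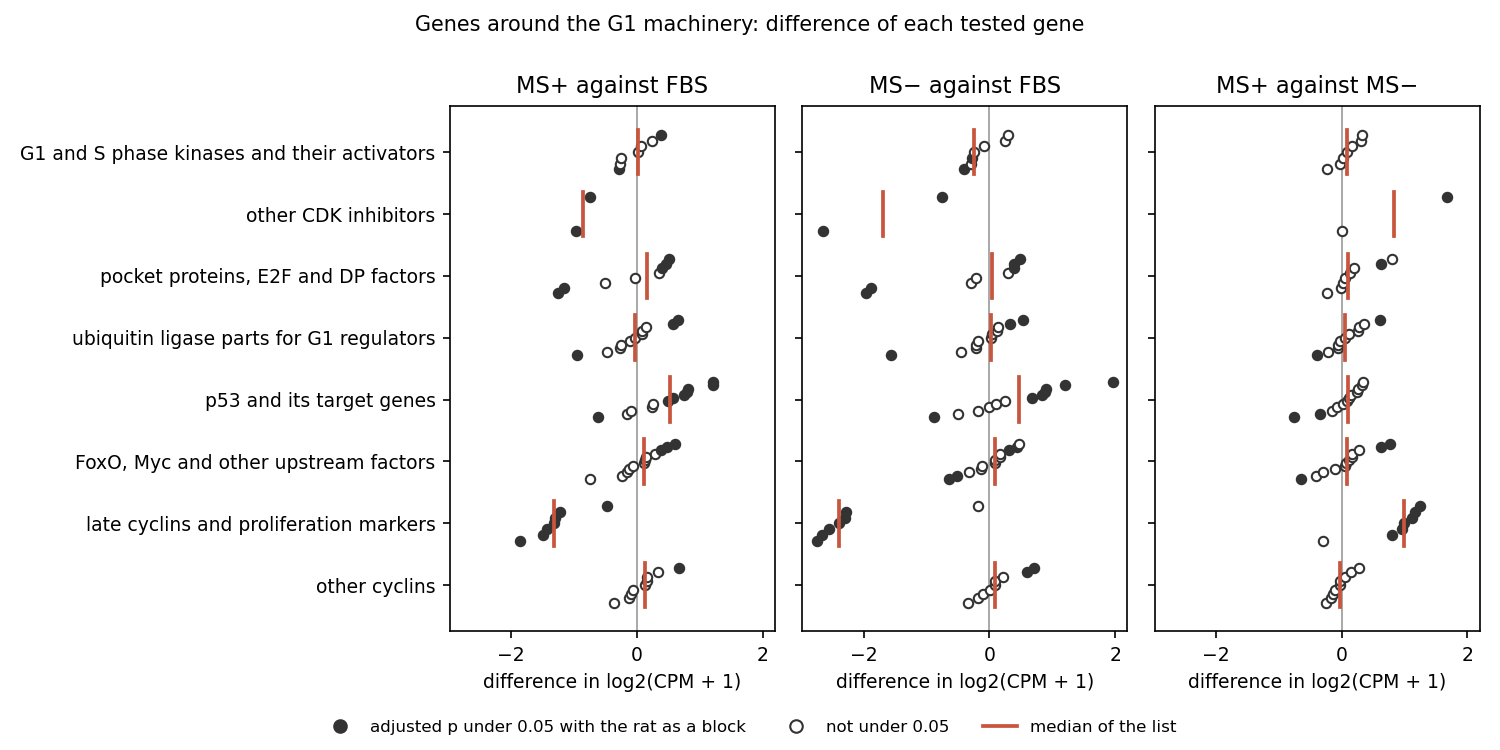
Difference in log2(CPM + 1) (horizontal axis) of each of 68 tested genes in 8 lists (rows) for the 3 comparisons; filled points passed in the blocked fit, and vertical lines are list medians. The late cyclins and proliferation markers have medians of -1.32 for MS+ against FBS, -2.39 for MS− against FBS and 1.00 for MS+ against MS−.

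Of 7 tested kinases and activators none passed in any comparison without the block, and the medians were 0.02, -0.24 and 0.09. With the block, Ccnh, the cyclin of the CDK-activating kinase, was higher in MS+ than FBS (0.38, adjusted p = 0.0251) and the kinase chaperone Cdc37 was lower in MS+ (-0.29, adjusted p = 0.0200) and in MS− (-0.27, adjusted p = 0.0372). Cdk4, the partner of the D cyclins, was lower in MS− than FBS with the block (-0.41, adjusted p = 0.00572), and its row overlaps another gene, so that its count is uncertain. Both other CDK inhibitors tested were lower against FBS. Cdkn2a, whose locus encodes an INK4 protein and ARF, fell in MS+ (-0.75, adjusted p = 0.0368) and was lower in MS− with the block (-0.75, adjusted p = 0.0524 without the block, 0.00351 with it). Cdkn3, a phosphatase that acts on CDK2 and is abundant in dividing cells, fell in MS− from 13.6 ± 2.09 to 1.36 ± 0.63 CPM (SD, n = 2; -2.65, adjusted p = 0.00409). In MS+ Cdkn3 stood at 6.45 ± 1.07 CPM, below FBS (-0.97, adjusted p = 0.0686 without the block, 0.00920 with it) and above MS− by 1.68 (adjusted p = 0.109 without the block, 0.000693 with it).

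Downstream of the kinases, E2f1, an E2F activator, gave 19.2 and 21.2 CPM with FBS, 4.76 and 4.70 CPM with MS−, and 7.03 and 8.81 CPM with MS+. It fell in MS+ (-1.25, adjusted p = 0.0117) and in MS− (-1.89, adjusted p = 0.00391) against FBS, and lay higher in MS+ than MS− with the block (0.63, adjusted p = 0.214 without the block, 0.0495 with it). E2f7, an E2F repressor that is itself an E2F target, fell in both rat sera (-1.16, adjusted p = 0.0389, and -1.95, adjusted p = 0.0107). E2f6 passed only with the block, higher in MS+ (0.52, adjusted p = 0.00283 with the block) and in MS− (0.39, adjusted p = 0.0228). The same held for the pocket protein gene Rb1, whose row overlaps another gene (0.47 in MS+, adjusted p = 0.00317, and 0.48 in MS−, adjusted p = 0.00341). Without the block, the list of 8 pocket protein, E2F and DP genes had 2 lower and none higher in each contrast with FBS, with medians of 0.16 in MS+ and 0.04 in MS−. With the block it had 2 lower and 3 higher in each. Over all rows the blocked fit called 13.9% lower and 14.4% higher in MS+, and 9.63% lower and 10.8% higher in MS−. The third higher gene of the list was the pocket protein gene Rbl2 (0.40 in MS+, adjusted p = 0.0286, and 0.38 in MS−, adjusted p = 0.0445), named after its values were seen.

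Among 11 genes of the ubiquitin ligases that degrade G1 regulators, Cks1b, the SCF cofactor needed to mark p27 for degradation, fell in MS+ (-0.95, adjusted p = 0.0175) and in MS− (-1.56, adjusted p = 0.00409) against FBS. Its levels were 34.9 and 36.3 CPM with FBS, 10.2 and 12.7 CPM with MS−, and 16.9 and 19.1 CPM with MS+. The SCF core gene Skp1 (0.58, adjusted p = 0.0147) and the cullin Cul4b (0.66, adjusted p = 0.0227) rose in MS+ and were higher in MS− with the block (0.32, adjusted p = 0.0102, and 0.54, adjusted p = 0.00344). MS+ against MS− differed with the block by 0.62 for Cks1b (adjusted p = 0.0164) and by -0.40 for Ambra1, the cullin adaptor of the D cyclins (adjusted p = 0.0184). List medians were -0.02, 0.02 and 0.05.

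Of 12 tested genes in the p53 list, 5 rose and none fell in MS+ against FBS (median 0.53), and 6 rose and 1 fell in MS− against FBS (median 0.46). Over all rows 4.95% rose and 4.66% fell in MS+, and 2.09% rose and 2.72% fell in MS−. Ccng1, an atypical cyclin, stood at 430 and 473 CPM with FBS, 1034 and 1035 CPM with MS− and 1017 and 1083 CPM with MS+, a rise of 1.22 in MS+ (adjusted p = 0.00320) and 1.20 in MS− (adjusted p = 0.00238). Btg2, an antiproliferative gene, rose by 1.21 in MS+ (adjusted p = 0.00903) and by 1.96 in MS− (adjusted p = 0.00234), and was lower in MS+ than MS− with the block (-0.75, adjusted p = 0.138 without the block, 0.00120 with it). Mdm2, which marks p53 for degradation, rose in MS− (0.91, adjusted p = 0.0219), and the nuclease gene Aen rose in MS+ (0.81, adjusted p = 0.0127). The other genes behind the MS+ count were Mdm2 (0.75, adjusted p = 0.0273) and Phlda3 (0.79, adjusted p = 0.00641). Aen (0.88, adjusted p = 0.0125), Phlda3 (0.68, adjusted p = 0.0102) and Zmat3 (0.83, adjusted p = 0.0262) also rose in MS−. The gene that fell in MS− was the stress gene Gadd45a (-0.88, adjusted p = 0.0461). Gadd45a was also lower in MS+ (-0.62, adjusted p = 0.0827 without the block, 0.00145 with it). Phlda3 and Gadd45a, and Aen and Zmat3 in MS− against FBS, were named after their values were seen. Zmat3 was lower in MS+ than MS− with the block (-0.34, adjusted p = 0.0265). Between the rat sera the list median was 0.10, with no gene higher (5.27% of all rows) and 2 lower (4.78%) with the block.

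The 12 upstream factors included Foxo4, a FoxO factor that can induce Cdkn1b, which rose in MS+ (0.60, adjusted p = 0.0352) and was the only gene of the list to pass without the block (medians 0.12 and 0.09 against FBS). Foxo4 was also higher in MS− with the block (0.44, adjusted p = 0.0365). Sp1, a GC box binding factor, was higher with the block in MS+ (0.47, adjusted p = 0.00200) and in MS− (0.31, adjusted p = 0.0344, named after its value was seen). Smad3, the TGF-beta effector whose row overlaps another gene, was higher in MS+ with the block (0.38, adjusted p = 0.0181). Myc, which drives G1 entry, read 30.4 and 33.3 CPM with FBS, 17.6 and 22.8 CPM with MS−, and 29.7 and 40.7 CPM with MS+. It was lower in MS− than FBS (-0.65, adjusted p = 0.125 without the block, 0.00317 with it) and higher in MS+ than MS− (0.77, adjusted p = 0.177 and 0.00226). Klf4 followed in the same contrasts with the block (-0.51, adjusted p = 0.00358, and 0.62, adjusted p = 0.00228), while Foxo3, another FoxO factor, was lower in MS+ than MS− (-0.64, adjusted p = 0.214 without the block, 0.0331 with it).

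Of 7 late cyclins and proliferation markers, 6 fell in MS+ and 6 in MS− against FBS, with medians of -1.32 and -2.39. Over all rows 4.66% fell in MS+ and 2.72% in MS−. Ccna2, the S phase cyclin A, had 29.3 and 30.3 CPM with FBS, 3.29 and 3.98 CPM with MS−, and 11.4 and 8.63 CPM with MS+. Its mean fell from 29.8 ± 0.74 CPM with FBS to 9.99 ± 1.93 CPM with MS+ (SD, n = 2; adjusted p = 0.00853) and 3.63 ± 0.48 CPM with MS− (adjusted p = 0.00185). Ccnf (-1.87 and -2.67) and the topoisomerase Top2a (-1.43 and -2.54) fell likewise. Pcna, the sliding clamp of DNA replication, did not pass without the block (-0.48 in MS+, adjusted p = 0.0522, and -0.18 in MS−, adjusted p = 0.448), and with it passed in MS+ (0.00748). In MS+ against MS− none passed without the block and 6 of the 7 were higher with it (5.27% of all rows). Pcna gave -0.30 there (adjusted p = 0.311, and 0.131 with the block). The higher genes included Ccna2 (1.24, adjusted p = 0.108 without the block, 0.00105 with it), Cdk1 (1.17, adjusted p = 0.0917 and 0.000365) and Top2a (1.11, adjusted p = 0.170 and 0.000409). Ccnd1 and Ccnd2 were lower and these late genes higher in that blocked contrast. Among 9 other cyclins none passed without the block, and with it Ccnl1, a splicing cyclin, was higher in MS+ (0.68, adjusted p = 0.000359) and MS− (0.70, adjusted p = 0.000352) and Ccnl2 in MS− (0.59, adjusted p = 0.00849).

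**Figure D4:**
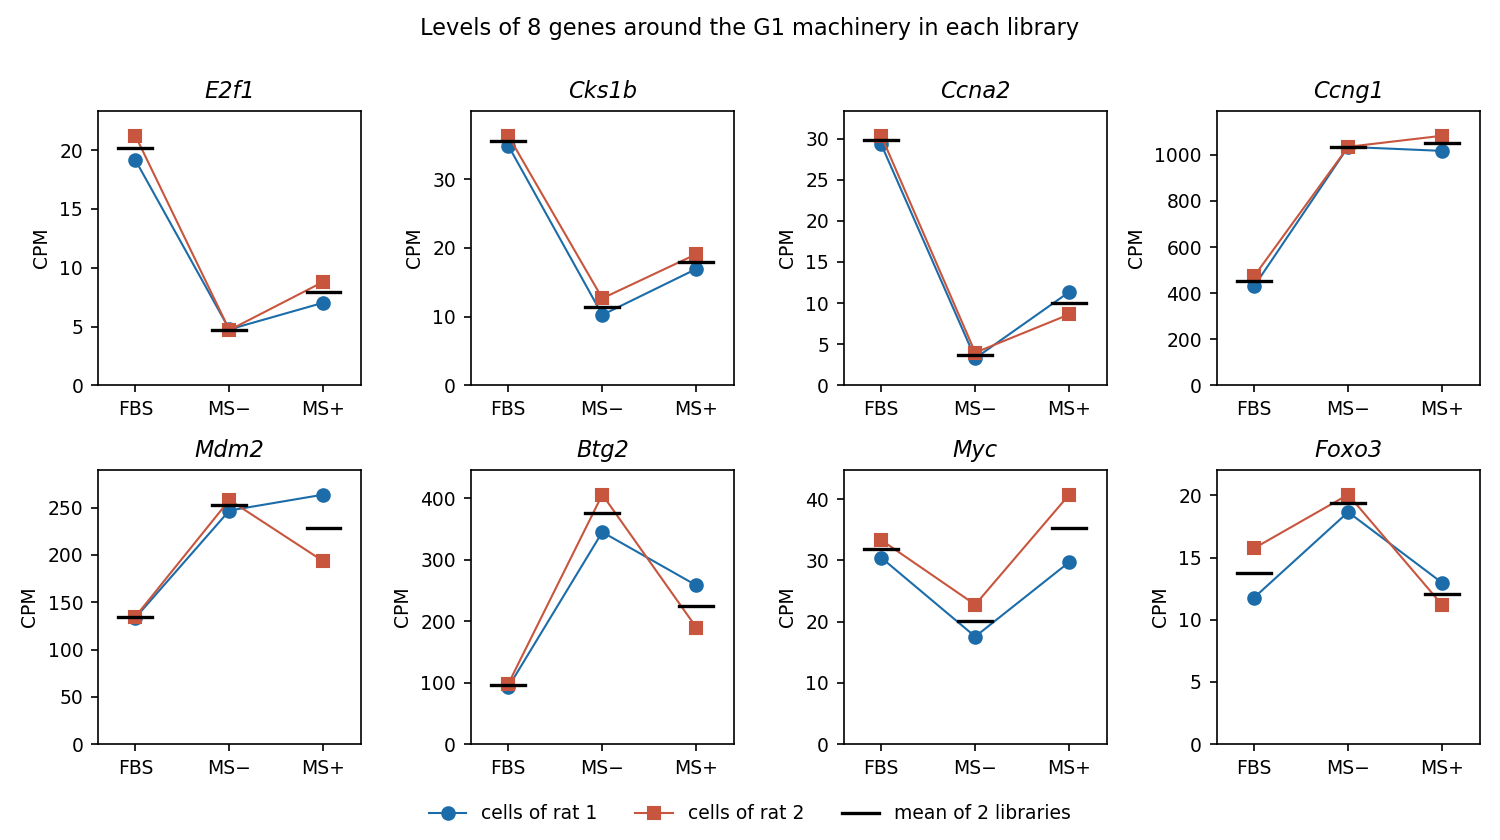
Level in CPM (vertical axes, linear, from 0) of 8 genes around the G1 machinery in each library by serum setting; circles are rat 1, squares rat 2, lines join the libraries of a rat and bars are means of 2 libraries. E2f1, Cks1b and Ccna2 are highest in FBS and lowest in MS−, Btg2 and Foxo3 are highest in MS−, and Ccng1 is at 1017 CPM or more in all 4 rat serum libraries.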

How the data were processed

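Poly(A) RNA was sequenced and low-quality reads were removed before alignment. The authors aligned reads to the rat genome rn4 (Bowtie2 2.1.0) and counted them per transcript (HTSeq 0.5.4p3); both versions are from the submitters' processing notes. They deposited 1 table of a TMM-scaled signal in counts per 1000000 reads (CPM). Strand use is not given in the sources used here. Whole reads were recovered from the step that 1 read makes in each library, and 100% of the values came out whole within 1e-06 reads. Libraries held 5463316 to 5991889 reads, and 3 reads corresponded to 0.491 to 0.551 CPM, which covers counting error only.

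A row entered the tests when each of the 2 libraries of some group had 1 CPM or more (9820 rows). Differences were tested on log2(CPM + 1) with limma 3.58.1 (trend, two-sided) in R 4.3.3, over all 6 libraries with the setting as the only term, and p-values were Benjamini-Hochberg adjusted over all rows. Fold changes on this scale understate those of low genes. The replicates are numbered alike in each setting, and equal numbers were taken as the same rat, which pairs the libraries. Deviations of same-numbered libraries correlated by 0.590 (MS+ and MS−), 0.494 (MS+ and FBS) and 0.616 (MS− and FBS) across rows. The replicate block stood for the rat, and any batch shared by same-numbered libraries cannot be told apart from it. edgeR 4.0.16, limma-voom and DESeq2 1.42.0 on the recovered reads, other filters, scalings and omitted libraries were alternatives.

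All 10 genes were named. From each list at most 3 genes per comparison were named, those with the largest differences among genes past the threshold with the block and moving alike in both rats. The genes and lists were chosen with earlier results of these data known. Levels are not compared between genes, since transcript lengths were not used. One leukocyte marker is not reported here.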

Additional observations from a re-analysis of the deposited data

How the results depend on the processing

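The 8 tested genes gave 600 differences under alternatives, of which 499 kept direction and side of the threshold, 38 lost and 57 gained the call, and 6 changed sign. With the replicate block, which stands for the rat, limma passed 7 genes for MS+ against FBS (28.2% of all rows) and 3 for MS+ against MS− (10.1%). Blocked edgeR and limma-voom gave the same counts of genes. No filter on low values left 2 for MS+ against FBS and 1 for MS− against FBS, where more rows entered the adjustment. Fitting the 2 groups alone, where fewer libraries estimated the spread, left 2 for MS− against FBS (Ccne1 0.0831 and Cdkn2b 0.0865 lost) and 3 for MS+ against FBS (Cdkn2c 0.0587 lost). Ccne1 in MS+ against FBS was also lost with a pseudocount of 0.1 CPM (0.0577) and a filter at a mean of 5 CPM (0.0528). For MS+ against FBS, DESeq2 called Ccnd1 (adjusted p = 0.0172) and not Ccne1 (0.0619). Leaving out 1 library left 1 to 3 for MS+ against FBS and 1 to 2 for MS− against FBS. With the block as well, chosen after seeing the data as was limma-voom with the block, it left 6 to 7, 3 to 6, and 0 to 3 for MS+ against MS− (0 without the MS− library of rat 1). A fit with 1 library left out has 1 library in a group, and with the block its spread comes mostly from other rows. Blocked p-values could fall as a library was removed, so a call kept there is not a check of robustness. The signs that turned were between MS+ and MS−. Ccne1 ranged from -0.16 (without the MS− library of rat 1) to 0.57 with 1 library left out, and with the block from -0.21 to 0.62, with -0.034 without the MS+ library of rat 1. Cdkn2c ranged from -0.35 (without the MS+ library of rat 2) to 0.48, with -0.088 without the MS− library of rat 1, and was -0.34 without that MS+ library with the block. List genes called were 31, 31 and 15 with the block, and 1 to 14, 11 to 15 and 0 with 1 library left out. Over all rows, MS+ against MS− had 2 calls by limma, 3 by edgeR, 4 by limma-voom and 123 by DESeq2. For MS+ against FBS, every omission of 1 library also left fewer calls over all rows than the same fit on all libraries. This held with and without the block. Where no reason is given, the cause was not tested. At 17 to 77 counts, Ccne1 limits what can be resolved.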

Other observations

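Ccnd1 was higher in rat 2 than in rat 1 by a ratio of 1.17 with FBS, 1.40 with MS− and 1.39 with MS+. For Ccnd2 the ratios were 1.30, 1.31 and 1.18. Cdkn1a had ratios of 1.03, 1.09 and 1.00. Cdkn2c was lower in rat 2 with FBS (0.826) and higher with MS− (1.27) and MS+ (1.91). With 1 library per rat and setting these ratios have no replicate check.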
